A study of Mus musculus with 6 samples.

Results

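The genes described here are targets of the hypoxia-inducible factors (HIFs) that act in cell survival and in the growth of blood vessels. The list holds 10 genes: NDRG1, BNIP3, BNIP3L, ANKRD37, VEGFA, ADM, DDIT4, KDM3A, BHLHE40 and STC2. Its members were chosen by name, with earlier results of the same 6 arrays known, so every member value below is a description and supports no claim about the group. A probe belonged to the set when the deposited probe report listed it under a member's name. This found 10 probes of 8 genes among 45281 probes under 30854 names. No probe was named KDM3A or BHLHE40, and 5 further probes carried an older name of a member. They were JMJD1A (3 probes of Kdm3a), BHLHB2 (Bhlhe40) and NDRL (a further probe of Ndrg1), which were matched through their gene or transcript identifiers and are given separately.

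The cells were C2C12, a line of mouse myoblasts that fuse into myotubes once serum is withdrawn. They were transfected with 60 nM of either a scramble siRNA or an siRNA against DJ-1, the protein encoded by Park7, and were differentiated for 4 days from 48 h after transfection. RNA from 3 samples of each group was hybridised to 6 bead arrays, 1 array a sample. The arrays are numbered within a group, and whether they hold separate cultures is not stated, so the error given here is the spread between these samples, which can be technical.

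Under low oxygen the alpha subunits of HIF escape hydroxylation, pair with ARNT and bind a short hypoxia response element near their target genes. The targets treated here lie outside glycolysis. NDRG1 is a stress-responsive protein linked to differentiation, BNIP3 and BNIP3L sit on the outer mitochondrial membrane and recruit the autophagy machinery, VEGFA and ADM are secreted peptides that act on vessels, DDIT4 restrains the kinase complex mTORC1, KDM3A removes methyl groups from histones, BHLHE40 is a transcriptional repressor and STC2 is a secreted glycoprotein. In skeletal muscle the pathway is known for its part in glycolytic metabolism and in capillary supply.

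RefSeq start sites on build GRCm38.p6 matched 7 of the 10 genes, in 10 windows of the 250 bases before a start. No start was available here for Ndrg1, Bnip3l and Bhlhe40, so their promoters were not searched. Of the genes with a probe called higher below, only Bnip3 was therefore searched. Both strands were searched for ACGTG and for GCGTG, the cores of the hypoxia response element. A match on the opposite strand reads CACGT or CACGC, and CACGTG matches ACGTG on both strands. At least 1 of these words stood in 38.6% of all 32851 promoter windows of that length, ACGTG in 16.6% and GCGTG in 28.2%. Among the members 7 of 10 windows held a match. In the sequences below, written 5′ to 3′ along the gene's strand, capitals mark every match. The first 3 lines are the 250 bases before the start of Bnip3 (chr7:138909507-138909756, minus strand), Adm (chr7:110627407-110627656, plus strand) and Ddit4 (chr10:59951771-59952020, minus strand). The last line is the 30 bases before the start of Ankrd37 (chr8:45999851-45999880, minus strand).
Bnip3: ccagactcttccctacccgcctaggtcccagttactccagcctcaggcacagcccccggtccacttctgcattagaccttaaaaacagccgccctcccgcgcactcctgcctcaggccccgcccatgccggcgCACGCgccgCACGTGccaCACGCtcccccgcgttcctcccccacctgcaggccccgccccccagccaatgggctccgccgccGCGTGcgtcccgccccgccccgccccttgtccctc
Adm: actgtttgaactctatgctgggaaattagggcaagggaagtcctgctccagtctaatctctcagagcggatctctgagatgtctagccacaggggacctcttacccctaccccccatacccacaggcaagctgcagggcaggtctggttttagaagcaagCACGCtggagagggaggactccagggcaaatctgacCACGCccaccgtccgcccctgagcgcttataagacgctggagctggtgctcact
Ddit4: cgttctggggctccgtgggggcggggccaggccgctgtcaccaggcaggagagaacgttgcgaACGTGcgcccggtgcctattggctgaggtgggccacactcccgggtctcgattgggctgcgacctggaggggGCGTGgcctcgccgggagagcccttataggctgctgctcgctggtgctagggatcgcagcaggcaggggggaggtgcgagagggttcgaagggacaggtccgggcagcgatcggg
Ankrd37: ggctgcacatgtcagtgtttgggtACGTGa

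Bnip3 held 5 matches, at 117, 108, 107, 99 and 35 bases before its start, of which those at 108 and 107 are the same CACGTG. Ankrd37 held 4, at 241, 155, 152 and 6 bases before the start, and those at 155 and 152 overlap. Adm, Stc2 and Ddit4 held 2 each. The first of the starts of Vegfa had no match and the second had 2, while the starts of Kdm3a had 1, 0 and 0. A match is only a match of letters, and the array values below give Bnip3 as higher and Ankrd37 as not called.

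**Figure D1:**
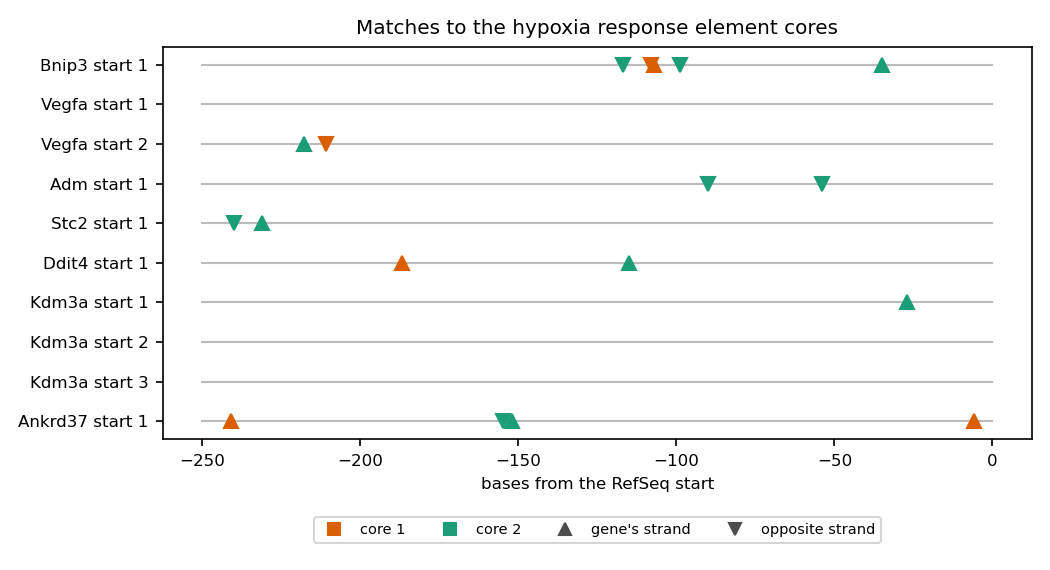
Position of each match in the 250 bases before each RefSeq start, with bases from the start on the x axis. Orange marks ACGTG (core 1) and green GCGTG (core 2), and triangles point up for the gene's strand and down for the opposite strand. Bnip3 has 5 matches, Ankrd37 4, and 3 of the 10 windows have none.

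The labels were first checked against Park7, the target of the siRNA. Its normalised log2 intensity was 13.59, 13.37 and 13.63 in the controls and 12.48, 12.49 and 12.15 after knockdown. All 3 knockdown arrays lay below all 3 controls, and Park7 fell by 1.16 on the log2 scale (SE 0.14, adjusted p = 0.0034, limma, lower in 3 of 3 arrays), which is 2.24-fold.

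Of the 10 probes named for a member, 9 passed the filter on dim probes, and those 9 were detected on all 6 arrays, so none passed through a single group. The fit called 3 of the 9 higher after knockdown and 0 lower by limma, where 4 were higher and 0 lower at an unadjusted p under 0.05. Across the array 16.5% of the 17890 tested probes were called higher, 13.6% lower and 30.1% in either direction. Nothing is read from the members' count beside them, because the members were chosen with earlier results of this contrast known. Their log2 fold changes ran from -0.26 to 1.46 with a median of 0.09, beside a median of 0.05 over all tested probes. The members' median ran from 0.05 (without DJ-1 siRNA replicate 1) to 0.20 (without scramble replicate 1) with 1 array left out, and was 0.25 when the arrays were shifted to a common 75th percentile after background correction and 0.33 with a gene's probes averaged. For 5 of the 9 the arrays of the groups were fully apart, as for 48.5% of all tested probes. Among the 5 probes under older names, 1 was called higher and 0 lower. The named probes called higher were those of NDRG1, BNIP3 and BNIP3L, and the 6 probes of ADM, VEGFA, DDIT4, STC2 and ANKRD37 were not called.

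**Figure D2:**
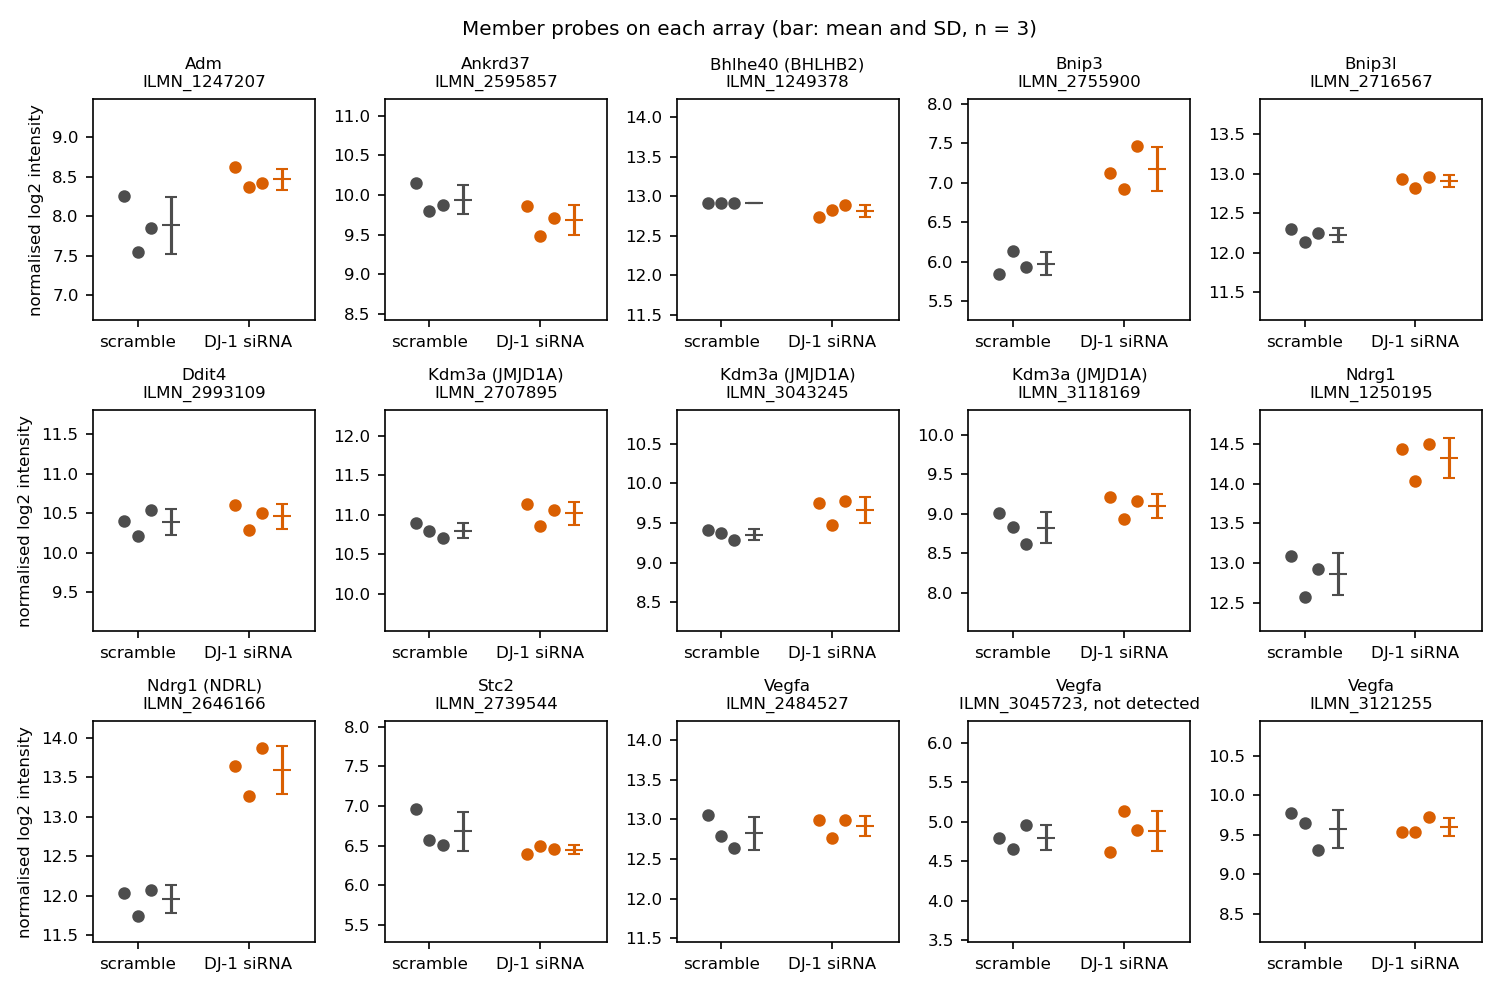
Normalised log2 intensity of all 15 probes of the 10 genes on each array, with the scramble siRNA arrays in grey and the DJ-1 siRNA arrays in orange. Bars give the mean and SD of 3 arrays and every panel spans the same log2 range around its own centre. The arrays separate by over 1 log2 unit between group means for both Ndrg1 probes and for Bnip3, and they intermix for Ddit4 and Vegfa.

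NDRG1 had the largest fitted log2 fold change among the named probes. The deposited intensity of its probe was 8710, 6301 and 7596 in the controls and 22479, 18882 and 22666 after knockdown. After normalisation the log2 intensities were 13.09, 12.57 and 12.93 against 14.44, 14.04 and 14.50. The lowest knockdown array stood well above the highest control, although replicate 2 was the dimmest of its group in both groups. The log2 fold change was 1.46 (SE 0.18, n = 3 and 3), or 2.76-fold. A further Ndrg1 probe, listed as NDRL, gave 12.04, 11.75 and 12.07 in the controls and 13.64, 13.26 and 13.87 after knockdown. Its groups were apart as well, with a log2 fold change of 1.64 (SE 0.18). Both probes were called under all 15 alternative settings.

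Both mitophagy receptors were higher. BNIP3L read 12.30, 12.13 and 12.25 in the controls and 12.93, 12.82 and 12.96 after knockdown, in log2 intensity. The spread within a group was small (SD 0.09 and 0.07), and the groups were apart. The log2 fold change was 0.68 (SE 0.10, 95% interval 0.44 to 0.91), and it was called in all 15 alternatives. BNIP3 read 5.85, 6.14 and 5.94 in the controls and 7.12, 6.92 and 7.47 after knockdown. Its control values lay close to the limit of detection, since the dimmest detected probe of the scramble arrays stood at 5.60, 5.53 and 5.42. The log2 fold change of 1.19 (SE 0.16, 95% interval 0.80 to 1.58) rests on the background correction. Without that step it was 0.50, still called, and the size of the BNIP3 difference is less certain than its direction. The probe was called in the 14 alternatives that tested it, and the stricter filter on detection left it out.

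Among the secreted factors, ADM, the adrenomedullin precursor, read 8.26, 7.55 and 7.85 in the controls and 8.62, 8.37 and 8.42 after knockdown. The groups did not overlap, but scramble replicate 1 came within 0.11 log2 units of the lowest knockdown array and the control spread was wide (SD 0.35). The log2 fold change of 0.58 (SE 0.19, 95% interval 0.13 to 1.03) was not called. It was called in 6 of 15 alternatives, of which 1 left out an array, scramble replicate 1 (0.77). The value was 0.39 without background correction, where it was called, and 0.42 without scramble replicate 2, where it was not. VEGFA, the main growth factor for endothelial cells, had 3 probes. One of them gave 13.05, 12.79 and 12.64 against 12.99, 12.77 and 12.99, and the values of the groups intermixed. The log2 fold changes of the detected VEGFA probes were 0.09 (SE 0.14, 95% interval -0.24 to 0.42) and 0.02 (SE 0.15, 95% interval -0.32 to 0.37). The third probe was detected on 0 arrays and has no fold change. STC2 read 6.96, 6.57 and 6.51 in the controls and 6.39, 6.50 and 6.45 after knockdown. Its groups touched without overlapping, and the log2 fold change was -0.23 (SE 0.14, 95% interval -0.56 to 0.10). It was -0.09 without scramble replicate 1, the highest of the STC2 values, and -0.10 without background correction.

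DDIT4 read 10.40, 10.21 and 10.54 in the controls and 10.60, 10.29 and 10.50 after knockdown. These values intermixed, with a log2 fold change of 0.08 (SE 0.13, 95% interval -0.24 to 0.39). ANKRD37, an ankyrin repeat protein, gave 10.15, 9.80 and 9.87 against 9.86, 9.48 and 9.71. Its knockdown arrays tended low but overlapped the controls, and the log2 fold change was -0.26 (SE 0.15, 95% interval -0.61 to 0.09), or -0.16 without scramble replicate 1 or DJ-1 siRNA replicate 2. The intervals of DDIT4, VEGFA, STC2 and ANKRD37 contain 0, with upper bounds from 0.09 to 0.42. Missing the threshold does not show that these transcripts were unchanged.

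The nuclear regulators appear only under older names. The Kdm3a probes had log2 fold changes of 0.22, 0.27 and 0.32 (SE 0.11, 0.14 and 0.12), all positive and none called, with the probe at 0.27 falling to 0.17 without scramble replicate 3. The highest of them (95% interval 0.04 to 0.60) was called in 4 of 15 alternatives and the lowest in 1. Bhlhe40 was bright and even, at 12.92 on each of the scramble arrays and at 12.74, 12.82 and 12.89 after knockdown. The knockdown values were all slightly lower, with a log2 fold change of -0.10 (SE 0.09, 95% interval -0.32 to 0.11), but the sign depended on the scaling, and the shift to a common 75th percentile gave 0.06.

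**Figure D3:**
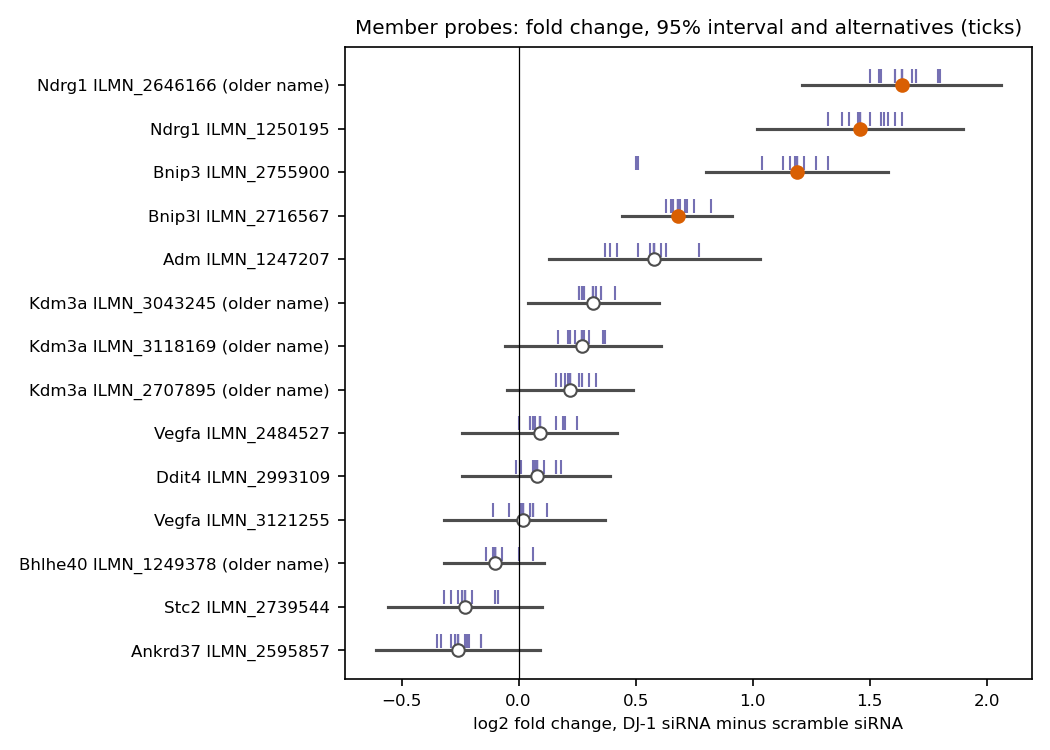
Log2 fold change (DJ-1 siRNA minus scramble siRNA) of the 14 tested probes of the 10 genes, with 95% intervals from the limma fit on 3 and 3 arrays. Filled points were called, and ticks above each line are the same value under the alternative settings. The intervals of Ndrg1, Bnip3, Bnip3l, Adm and 1 Kdm3a probe lie above 0, of which the last 2 were not called, and the ticks of Bnip3 near 0.50 are the settings without background correction.

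The gene and marker lists from here on were also chosen with earlier results of these arrays known, so their counts are descriptions. Each list's counts stand beside the shares over all tested probes, 16.5% called higher and 13.6% lower. Of 10 tested probes for paralogs of the members, 3 were called higher and 1 lower, with a median log2 fold change of 0.40. Ndrg3 rose by 1.08 (SE 0.11, adjusted p = 0.0031) and Ndrg4 fell by 0.55 (SE 0.10, adjusted p = 0.0092), and both were called in all 15 alternatives. The Ndrg2 probes disagreed in call, with log2 fold changes of 0.51 (adjusted p = 0.026) and 0.36 (adjusted p = 0.051), and the call of the former was lost in 6 of 15 alternatives and that of the latter gained in 7, the losses among them those without scramble replicate 2 (0.41) or 3 and DJ-1 siRNA replicate 1 or 3. One of the 3 higher probes is of Kdm3b, detected on 3 of 3 knockdown arrays and 0 controls, which passed the filter only through the group where it is higher. It has only a bound, at least 1.1-fold higher, with the mean of the knockdown arrays set against the dimmest detectable signal of the controls, and its call was lost in 10 of 14 alternatives, among them those without scramble replicate 2 or 3 and DJ-1 siRNA replicate 1 or 2. Without it the counts are 2 higher and 1 lower of 9, and with it at its bound the median is 0.34. Vegfb and Ddit4l were not called. Leaving out DJ-1 siRNA replicate 1 gave 1 higher probe.

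Of 15 tested probes for HIF subunits and the hydroxylases that sense oxygen, 1 was called higher and 0 lower by limma, where 3 were higher and 1 lower at an unadjusted p under 0.05, and the median was 0.06. The detected Hif1a probe had a log2 fold change of 0.44 (SE 0.23, adjusted p = 0.19), and ran from 0.26 (without scramble replicate 2) to 0.69 (without scramble replicate 3, the 1 alternative of 15 that called it). Its other 2 probes were detected on 0 arrays. The called probe was for Arnt, the partner of the alpha subunits, at 0.96 (SE 0.18, adjusted p = 0.011). It was detected on 2 of 3 controls, where it read 5.31, 5.86 and 5.58, near the limit of detection, and its value was 0.33 without background correction, still called. Averaged with the other 2 Arnt probes matched to RefSeq it was 0.59 and called, while the 2 Arnt probes without a match averaged 0.18 and were not called. The other 4 Arnt probes ran from 0.06 to 0.46 and were not called, although that at 0.33 was called in 5 of 15 alternatives. The hydroxylase Egln2 had a value of -0.56 (adjusted p = 0.055) and was called in 6 of 15 alternatives, among them those without background correction (-0.33) and without scramble replicate 3 (-0.74). The probes of Egln1 and Egln3 ran from -0.24 to 0.40 with none called, although 1 of Egln3 was called without that array (0.53). Hif1an (-0.29) and Vhl (-0.09) were not called, and Epas1, Hif3a and Arnt2 had no tested probe. Without scramble siRNA replicate 3 the list gave 3 higher probes and 1 lower.

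A wider list of HIF targets was mostly outside glycolysis, though it holds Pfkfb3, Pfkfb4 and Slc16a3. It gave 22 higher and 3 lower of 43 tested probes, with a median of 0.45. Over all tested probes 16.5% were called higher and 13.6% lower, with a median of 0.05. The list was chosen with earlier results of these arrays known, so its count is a description. The largest differences were those of Edn1, the endothelin precursor, which fell by 1.34 (SE 0.17, adjusted p = 0.0039), of Car9 at 1.33 (SE 0.12, adjusted p = 0.0027) and of the Car12 probes at 1.26 each (adjusted p = 0.0051 and 0.0081). Car9 and Car12 are membrane-bound carbonic anhydrases. All were called in every alternative run, although without background correction Edn1 was at -0.79 and 1 of the Car12 probes at 0.81, so the vasoactive peptide and the anhydrases moved in opposite directions. Tfrc, the transferrin receptor, supplied the other 2 lower probes, which fell by 0.66 and by 0.71. Plod2 (0.73 called, 0.61 not) and Ankzf1 (0.41 called, -0.04 not) had probes that disagreed. The Plod2 call was lost in 3 of 15 alternatives, among them those without DJ-1 siRNA replicate 1 or 3. Its uncalled probe was called in 7. The Ankzf1 call was lost in 8 of 15, among them those without any array but scramble replicate 3 (0.35 to 0.46 over all) and with its probes averaged (0.19). The count of higher probes was 10 without DJ-1 siRNA replicate 1, 10 without replicate 3 of that group and 14 without scramble siRNA replicate 2.

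Ligands and receptors around VEGFA and ADM gave 1 higher and 4 lower of 12 tested probes (4 and 5 at an unadjusted p under 0.05), with a median of -0.15. The lower count was 1 with the test without moderated variances and 2 without any array but DJ-1 siRNA replicate 2. It was also 2 under the 75th percentile shift after background correction, without a filter and with the replicate block, which lost both Nrp1 calls. Angpt1, a ligand that steadies vessels, fell by 1.29 (SE 0.27, adjusted p = 0.014), a call lost in 1 of 15 alternatives, the test without moderated variances, and its value was -0.73 without background correction. Ramp2, which lets the calcitonin receptor-like receptor bind adrenomedullin, fell by 1.21 (SE 0.21, adjusted p = 0.0092) and was at -0.76 without background correction. Both Nrp1 probes fell, by 0.37 and by 0.38, and a Nrp2 probe rose by 0.45 (adjusted p = 0.013). The Nrp1 call at -0.37 was lost in 10 of 15 alternatives, among them those without any 1 of the 6 arrays (-0.43 to -0.29). The call at -0.38 was lost in 9 of 15 alternatives, among them those without any array but DJ-1 siRNA replicate 2 (-0.47 to -0.32 over all), and the Nrp2 call without DJ-1 siRNA replicate 1. Nrp2 was at 0.29 under the 75th percentile shift without background correction. The receptor gene Kdr was detected on 0 arrays. No probe of this list was called higher without DJ-1 siRNA replicate 1, and 2 were without scramble siRNA replicate 3.

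Partners of BNIP3 in mitophagy and in the BCL2 family gave 4 higher and 0 lower of 22 tested probes by limma (6 and 1 at an unadjusted p under 0.05), with a median of 0.19. The higher count was close to the array-wide share of 16.5%. Gabarapl1, an autophagosome protein to which the receptors bind, rose by 0.89 (SE 0.11, adjusted p = 0.0037) and was called in all 15 alternatives. Mcl1, an anti-apoptotic protein, rose by 0.47 (adjusted p = 0.021), and 1 probe each of Map1lc3a (0.49) and Fundc1 (0.31) was called while another was not. The Mcl1 call was lost without scramble replicate 2 or 3 or DJ-1 siRNA replicate 1 or 3 (0.42 to 0.53 over left-out arrays), that of Map1lc3a without any array but DJ-1 siRNA replicate 2 (0.38 to 0.61) and that of Fundc1 without any of the 6 (0.28 to 0.34). With alternatives of every kind counted, the Map1lc3a and Fundc1 calls were each lost in 9 of 15, and the averaged Fundc1 probes were at 0.20. Becn1, Bax, Sqstm1 and Rheb were not called. Leaving out any of scramble replicates 2 and 3 and DJ-1 siRNA replicates 1 and 3 left 1 higher probe, and 1 was called lower without scramble replicate 1 or 3.

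Regulators of mTORC1 around DDIT4 gave 5 higher and 2 lower of 22 tested probes, with a median of 0.16. Eif4ebp1, a repressor of translation that mTORC1 inactivates, rose by 0.57 (SE 0.13, adjusted p = 0.017), and Akt1s1 fell by 0.45 (SE 0.10, adjusted p = 0.019). One Mtor probe was called at 0.83 (adjusted p = 0.037) and another was at -0.18. Tsc1 (0.46 called, 0.26 and 0.54 not), Sesn1 (0.37 and 0.39 called, 0.56 not) and Mlst8 (-0.40 called, -0.06 and -0.25 not) also had probes that disagreed in call. The Sesn1 probe at 0.56 was called in 4 of 14 alternatives and the Tsc1 probe at 0.54 in 1 of 14. Akt1s1 lost its call without any of the DJ-1 siRNA arrays (-0.49 to -0.39 over left-out arrays) and Eif4ebp1 without scramble replicate 2 or DJ-1 siRNA replicate 1 or 3 (0.49 to 0.66). Mtor lost it without any array but DJ-1 siRNA replicate 2 (0.57 to 1.02), Mlst8 without any of the 6 (-0.45 to -0.32), and Sesn1 without any but scramble replicate 1. In all the Mtor call was lost in 7 of 15 alternatives, that of Mlst8 in 11 and those of Sesn1 in 8 and 7, and Mtor was at 0.53 without background correction and Mlst8 at -0.24 with its probes averaged. The Tsc1 call was lost in 8 of 14, among them those without background correction (0.16), with a trend in the prior variance and without scramble replicate 3 or DJ-1 siRNA replicate 1 or 3. No probe of this list was called higher without DJ-1 siRNA replicate 1 or without replicate 3 of that group, and 1 was without scramble replicate 2 or 3. The lower count was 0 without any of the DJ-1 siRNA arrays and 1 without any of the scramble arrays.

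A list of Atf4 and targets of ATF4, a factor of amino acid stress that also acts on Ddit4 and Stc2, gave 3 higher and 3 lower of 20 tested probes (8 and 3 at an unadjusted p under 0.05), with a median of 0.33. Both counts were close to the array-wide shares of 16.5% and 13.6%. Of the lower probes 2 are of Atf4 itself and 1 of a target, Chac1. Chac1 fell by 1.08 (SE 0.12, adjusted p = 0.0031), and the Atf4 probes fell by 0.74 and by 0.48, calls lost without DJ-1 siRNA replicate 1 and, for the latter, replicate 3. The called higher probes were all of Vldlr, at 0.57, 0.48 and 0.47, whose remaining tested probes, at 0.46 and 0.44, were not called, although the latter was called in 6 of 15 alternatives and the former in 2 of 14. The probe at 0.46 was at 0.18 without background correction and at 0.27 without scramble replicate 1. It was at 0.71, and called, without scramble replicate 2. The call at 0.47 was lost without DJ-1 siRNA replicate 1 or 3. That at 0.48 was lost in 7 of 15 alternatives, among them those without any array but scramble replicate 1. The probe at 0.57 was detected on 1 of 3 controls, where it read 5.35, 5.44 and 5.55, near the limit of detection, so its size is uncertain. Its call was lost in 10 of 14 alternatives, among them those without background correction (0.18) and those that left out scramble replicate 1 or 2 or knockdown replicate 1 or 3. The list had 0 higher probes without DJ-1 siRNA replicate 1 or 3, and 1 lower without the former.

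**Figure D4:**
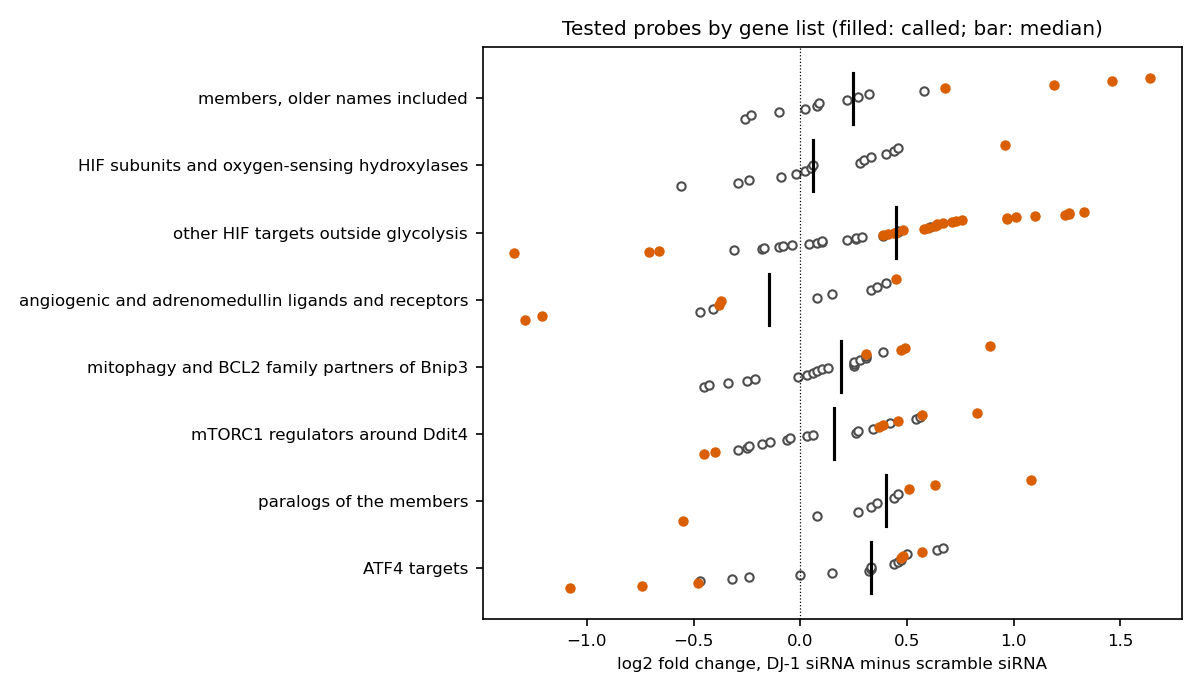
Log2 fold change of every tested probe in each gene list, filled where called, with a bar at the list median. The median is 0.45 for the wider HIF targets and -0.15 for the angiogenic ligands and receptors, beside 0.05 for all tested probes. The paralog Kdm3b is drawn at its fitted value, although it has only a bound.

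Other measures moved with the groups. The scramble arrays detected 16985, 17399 and 18179 probes and the DJ-1 siRNA arrays 18704, 18857 and 18408. The median bead standard error was 6.01, 4.31 and 5.08% of the intensity in the controls and 4.00, 3.50 and 3.55% after knockdown. Of 12 tested probes for markers of skeletal muscle, 5 were called lower and 0 higher by limma (5 and 0 at an unadjusted p under 0.05). Of these calls 2 were lost without DJ-1 siRNA replicate 1 and 2 without replicate 3. Des lost its call under the 75th percentile shift after background correction (-0.60 to -0.32 over all alternatives). A Mymk probe at -0.66 lost its call in 5 of 15 alternatives, among them the test without moderated variances and those without scramble replicate 2 or 3. The summed linear level of the muscle markers was 145475, 153133 and 146170 in the controls and 135348, 140228 and 130233 after knockdown. Acta1, the brightest of them, had a log2 fold change of -0.01, and Myod1 fell by 0.90. In bulk RNA, fewer cells of a type and less RNA per cell cannot be told apart. The part of bead noise and of muscle markers in the member values was not tested. Among markers of proliferating myoblasts, 2 of 8 tested probes were called lower and 0 higher by limma (2 and 3 at an unadjusted p under 0.05), 1 of them lost without DJ-1 siRNA replicate 1 or 3, and Pax7 was detected on 0 arrays. The median log2 fold change of the tested probes was 0.22. The summed level of these markers was 5658, 5891 and 5444 in the controls and 5108, 5779 and 5310 after knockdown. Cdk1 was the brightest, and its tested probe was at 0.30 and not called. Only 1 probe for endothelium, 0 for adipocytes and 1 for leukocytes could be tested, neither of them called, and Kdr, Adipoq, Plin1, Cidec, Lep, Ptprc and Itgam were detected on 0 arrays.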

How the data were processed

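Total RNA from 3 scramble siRNA and 3 DJ-1 siRNA samples was labelled (200 ng each) and hybridised to mouse whole-genome bead arrays. The authors deposited a mean intensity for each probe and array, not normalised and not background-subtracted, with the bead standard error and the bead number. The deposited detection p-value compares each probe with negative controls. All further steps were computed from these values in R 4.3.3 with limma 3.58.1. Normexp background correction (offset 16) took its negative controls from the detection p-values, followed by quantile normalisation and log2. The test kept probes detected (p under 0.05) on 3 or more of the 6 arrays (17890 of 45281). A linear model with moderated variances compared the groups, and Benjamini-Hochberg adjustment ran over all tested probes. A probe was called where the adjusted p was under 0.05. Intervals are 95%. The fit was tested on simulated data. The first simulation missed the recovery set for it. It had counted background noise more than once and given signal to undetected probes, and was revised. The condition on direction was relaxed after a later run had missed it. For a single value an exact permutation of 3 against 3 arrays cannot give a p below 0.1. The number of arrays limits the precision.

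Probes were named through Entrez identifiers and then unversioned transcript accessions in RefSeq (GRCm38.p6), which matched 32345 probes, and otherwise by the file's own name. The members and the gene lists were chosen with earlier results of these data known. Named genes were every probe of the members, Park7, the HIF subunit and hydroxylase list, the 4 largest called differences of each other list, and genes whose probes disagreed in call. Tfrc and the other genes named outside this rule were chosen after their values were seen. Alternatives covered background correction, scaling, the filter, the prior variance, the methods' t-test (their general unmoderated test, where their arrays were analysed with a moderated one), the replicate block, averaging a gene's probes and leaving out each array. Averages were taken by name, so that probes without a match were averaged apart from matched probes of the same gene (Arnt, Egln3, Mtor, Tsc1, P4ha1 and Top2a).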

Additional observations from a re-analysis of the deposited data

How the results depend on the processing

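Park7, NDRG1, BNIP3L and BNIP3 kept their direction and call in every alternative that tested them, and 0 of the 9 named member probes were called lower in any. With one array left out, the members' median ran from 0.05 (without DJ-1 siRNA replicate 1) to 0.20 (without scramble siRNA replicate 1). It was 0.25 under the 75th percentile shift after background correction and 0.33 with a gene's probes averaged. With one array left out in turn, probes called higher ran from 1392 to 2870 and lower from 1172 to 2420, both lowest without DJ-1 siRNA replicate 1. In the same fits, higher probes ran from 1 to 3 for HIF subunits and hydroxylases, 10 to 20 for wider HIF targets, 0 to 2 for angiogenic ligands and receptors, 1 to 3 for Bnip3 partners, 0 to 6 for mTORC1 regulators, 1 to 3 for paralogs and 0 to 4 for ATF4 targets. These fits have fewer samples. Over all 15 alternatives, lower probes ran from 0 to 1 for HIF subunits and hydroxylases, 2 to 4 for wider HIF targets, 1 to 5 for angiogenic ligands and receptors, 0 to 1 for Bnip3 partners, 0 to 2 for mTORC1 regulators and 1 to 4 for ATF4 targets, and were 1 for paralogs in each. Without a filter, more probes were tested and 1908 were called higher and 1611 lower, and the lists gave 13 (wider HIF targets), 2 (Bnip3 partners), 1 (mTORC1), 1 (paralogs) and 1 (ATF4). Without background correction the counts were 2 (HIF subunits), 3 (angiogenic) and 7 (ATF4), and the stricter filter and the trended prior variance gave those same counts. The 75th percentile shift gave 2 (angiogenic) and 5 (ATF4) after background correction, and 2 (HIF subunits), 2 (angiogenic), 8 (Bnip3 partners) and 7 (ATF4) without it. The methods' t-test gave 3 (mTORC1), 1 (paralogs) and 1 (ATF4), and array-wide 3854 higher and 3172 lower at its unadjusted threshold, or 1994 and 1680 after adjustment. Averaging the probes of a gene gave 2 (angiogenic) and 1 (ATF4). The cause of these changes was not tested.

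Deviations of same-numbered arrays from their group means correlated at 0.054, 0.047 and 0.020 over the tested probes. These values cannot show whether such arrays shared a culture or a batch, which is not stated. For both Ndrg1 probes and BNIP3L, replicate 2 was the lowest of each group, though not for BNIP3. The replicate block called 2361 probes higher and 1989 lower, 4 member probes higher, and 2 of the Bnip3 partners and 3 of the mTORC1 regulators, with Park7 at -1.16.

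Signs turned in 22 of the values for 11 named probes, none of them called in either fit and none above 0.19 in size. Bhlhe40 was 0.06 under the 75th percentile shift after background correction, and with a gene's probes averaged Ankzf1 was 0.19 and Egln1 -0.07. With one array left out, the ranges were -0.04 to 0.23 (Arnt), -0.26 to 0.05 (Mlst8), -0.16 to 0.04 (Ankzf1), 0.00 to 0.20 and -0.11 to 0.12 (Vegfa), -0.21 to 0.08 (Vhl), -0.02 to 0.06 (Egln3), -0.19 to 0.10 and -0.06 to 0.18 (Egln1) and -0.01 to 0.16 (Ddit4). The signal over background limits dim probes such as that of Bnip3, at 0.50 without background correction.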
